A study of Mus musculus with 2 samples.

Results

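The colony-stimulating factors and their receptors were examined as 8 genes, 3 for ligands and 5 for receptor chains, among the 34745 gene identifiers of the deposited table. The genes were taken by symbol, each symbol matched 1 identifier, and all 8 passed the expression limit of a mean of at least 1 FPKM (counts scaled to gene length and to the library's total), which 8658 genes reached. The cells were primary bone marrow-derived macrophages of C57BL/6 mice. The AclyE14-ASO library came from cells transfected with an antisense oligonucleotide (ASO) named for Acly, and the Control-ASO library from cells transfected with a control ASO. Both cultures were also treated with lipopolysaccharide (LPS), the bacterial product that activates macrophages through TLR4, so neither library shows unstimulated cells. Each condition was 1 library, so no test was possible, no difference has a replicate check, and culture-to-culture variation cannot be told apart from the effect of the ASO. The dose and duration of LPS, and any colony-stimulating factor added to the cultures, are not stated in the sources used here.

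Colony-stimulating factors are secreted proteins that control the production, survival and activation of myeloid cells. CSF-1 (M-CSF, gene Csf1) signals through the receptor tyrosine kinase CSF1R and sustains macrophages. GM-CSF (Csf2) binds an alpha chain (Csf2ra) that pairs with a shared beta chain (Csf2rb) and signals through JAK2 and STAT5. G-CSF (Csf3) acts through CSF3R, the receptor best known from neutrophils. Mice carry a second beta chain gene, Csf2rb2, whose product serves the IL-3 receptor. In activated macrophages, Csf2 and Csf3 are inducible, and the receptor genes mark the myeloid lineage.

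The AclyE14-ASO library held 12751076 gene counts and the Control-ASO library 14215397. Acly, which encodes ATP-citrate lyase and is the gene the oligonucleotide is named for, had 768 counts in the AclyE14-ASO library and 1549 in the Control-ASO library, a count ratio of 0.553 (counting interval 0.506 to 0.603). Ratios given here as count ratios are counts per library total, AclyE14-ASO over Control-ASO, with exact Clopper-Pearson 95% intervals that cover counting error only. A gene was called higher or lower when FPKM + 1 differed by 1.5-fold or more. By that rule 7.03% of the expressed genes were higher and 8.48% were lower, and the median gene had a log2 ratio of -0.13.

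The ligand genes Csf2 and Csf3 were called higher in the AclyE14-ASO library, and Csf1 was not, although all 3 had count ratios above 1. None of the 5 receptor genes passed 1.5-fold on FPKM + 1. Csf3r and Csf2ra had count ratios above 1, and Csf1r, Csf2rb and Csf2rb2 had count ratios below 1. Thus 2 of the 8 genes were called higher and 0 were called lower. Both calls also passed a limit of 4-fold, a size that 28 expressed genes, 0.323% of them, reached. Among genes whose mean was 5 to 20 FPKM, where Csf2, Csf3 and Csf3r lie, 5.62% were higher by 1.5-fold. In bulk RNA, a change in how many cells express a gene and a change in its RNA per cell cannot be told apart.

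**Figure D1:**
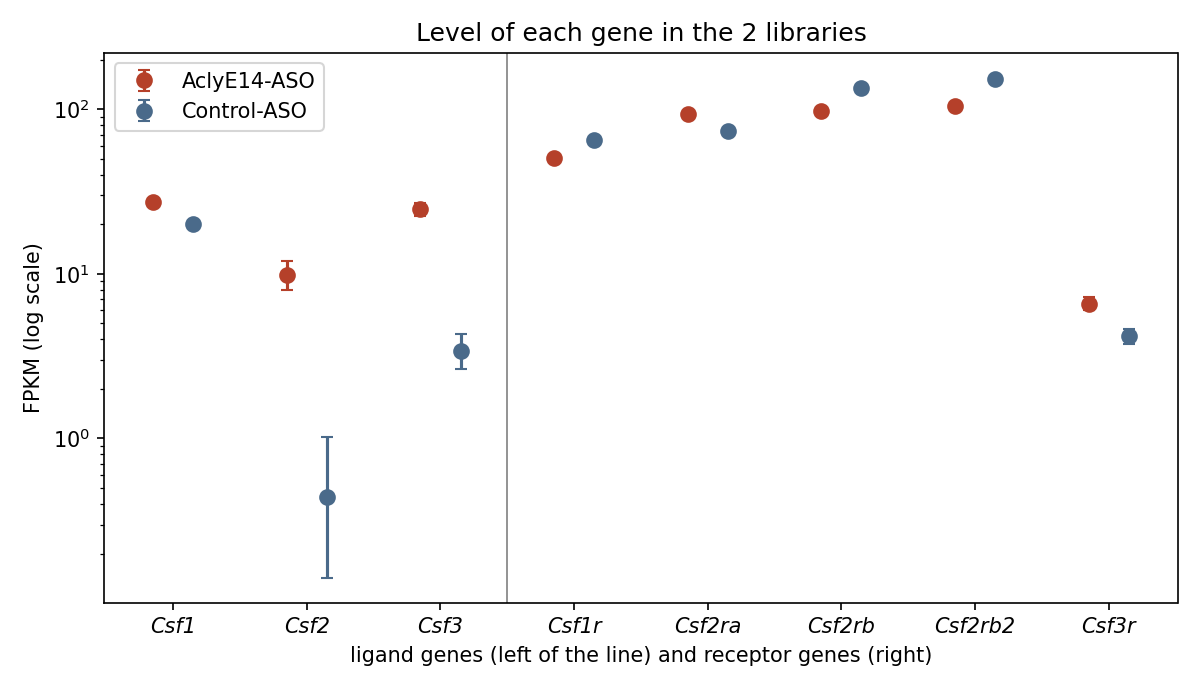
FPKM (log scale) of the 3 ligand genes and the 5 receptor genes in the AclyE14-ASO and Control-ASO libraries; points are single libraries and bars are exact Poisson 95% intervals for counting error. Csf2 (9.80 FPKM in AclyE14-ASO, 0.440 in Control-ASO) and Csf3 (24.7 FPKM in AclyE14-ASO, 3.39 in Control-ASO) have the widest separation between the libraries, and none of the 5 receptor genes passed 1.5-fold on FPKM + 1.

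Csf2, the gene for GM-CSF, had the largest count ratio of the 8. It had 100 counts and 9.80 FPKM (Poisson interval 7.98 to 11.9) in the AclyE14-ASO library, against 5 counts and 0.440 FPKM (0.143 to 1.03) in the Control-ASO library. The transcript was thus near the lower end of what the Control-ASO library could measure, and it passed the expression limit only through its level in the AclyE14-ASO library. The count ratio was 22.3, with an interval of 9.24 to 70.2 that is wide because of the 5 counts. On FPKM + 1 the log2 ratio was 2.91, and 0.0462% of expressed genes had a higher one. Csf2 (ENSMUSG00000018916) lies on chromosome 11 at 54247271 to 54249667, minus strand, GRCm38. It overlaps 96 exonic bases of the antisense gene Gm12223, which had 0 counts in both libraries.

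Csf3, the gene for G-CSF, had 445 counts and 24.7 FPKM (22.5 to 27.1) in the AclyE14-ASO library. The Control-ASO library held 68 counts and 3.39 FPKM (2.63 to 4.29). The count ratio of 7.30 (5.64 to 9.56) rests on more counts than that of Csf2. The log2 ratio on FPKM + 1 was 2.55, and 0.0809% of expressed genes had a higher one. The ratio of Csf2 was 3.05 times that of Csf3, with an exact conditional interval of 1.20 to 9.95. Csf3 was the more abundant of the 2 transcripts in both libraries, 2.52 times the FPKM of Csf2 in the AclyE14-ASO library and 7.70 times in the Control-ASO library. Csf3 (ENSMUSG00000038067) lies on the plus strand of chromosome 11 at 98701263 to 98703629.

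Csf1, the gene for M-CSF, was expressed at a moderate level in both libraries. It had 2764 counts and 27.3 FPKM in the AclyE14-ASO library, against 2265 counts and 20.03 FPKM in the Control-ASO library. The count ratio was 1.36 (1.29 to 1.44), and 10.7% of expressed genes had a higher log2 ratio. That places Csf1 inside the 1.5-fold limit, and its whole counting interval lies below 1.5. Csf1 (ENSMUSG00000014599) lies on chromosome 3 at 107741048 to 107760469, minus strand.

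The make-up of the ligand transcripts differed between the libraries. The 3 ligand genes summed to 61.8 FPKM in the AclyE14-ASO library and 23.9 FPKM in the Control-ASO library. Csf1 accounted for 44.1% of that sum in the AclyE14-ASO library and 84.0% in the Control-ASO library. Csf3 accounted for 39.995% in the AclyE14-ASO library and 14.2% in the Control-ASO library, and Csf2 for 15.9% in the AclyE14-ASO library and 1.84% in the Control-ASO library. These shares depend on the gene lengths behind the FPKM values. The deposited values imply 7954 bases for Csf1, 1.90 times the 4176 bases of its main coding transcript in GENCODE M21, whereas the lengths for Csf2 (800 bases) and Csf3 (1413 bases) equal their single transcripts. Per coding transcript length, Csf1 made up 60.1% of the ligand level in the AclyE14-ASO library and 90.9% in the Control-ASO library.

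Cytokine transcripts of this kind are short-lived through AU-rich stretches in the 3' untranslated region (3'UTR) that hold the pentamer ATTTA, the recognition unit of decay factors such as tristetraprolin. The 3'UTR was therefore read from the GENCODE M21 coding transcript of each gene, on the transcript strand, and overlapping matches were counted. The 317-base 3'UTR of Csf2 held 9 pentamers and 4 matches to the nonamer TTATTTATT, which contains the pentamer. Of 2015 3'UTRs of similar length, 0.0496% held as many pentamers as Csf2 or more, which is Csf2 itself, and 2.38% held the nonamer. Csf3 held 6 pentamers in 669 bases, a number that 1.72% of 2554 similar 3'UTRs reached, and no nonamer. Csf1 held 4 in 2111 bases, the median of its length class. Among the receptors, Csf1r held 3 and Csf2ra, Csf2rb, Csf2rb2 and Csf3r held 0. These counts describe the letters of the transcripts and say nothing about decay in these cells. The 30-base window with the most pentamers is shown for each ligand gene, 5' to 3' on the transcript strand, with ATTTA in capitals.
Csf2 (chr11:54247329-54247358, minus strand, GRCm38): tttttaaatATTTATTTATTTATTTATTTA
Csf3 (chr11:98702984-98703013, plus strand, GRCm38): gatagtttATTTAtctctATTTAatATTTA
Csf1 (chr3:107741109-107741138, minus strand, GRCm38): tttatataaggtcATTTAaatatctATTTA
The Csf2 window holds 5 pentamers in tandem, the Csf3 window 3 and the Csf1 window 2.

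**Figure D2:**
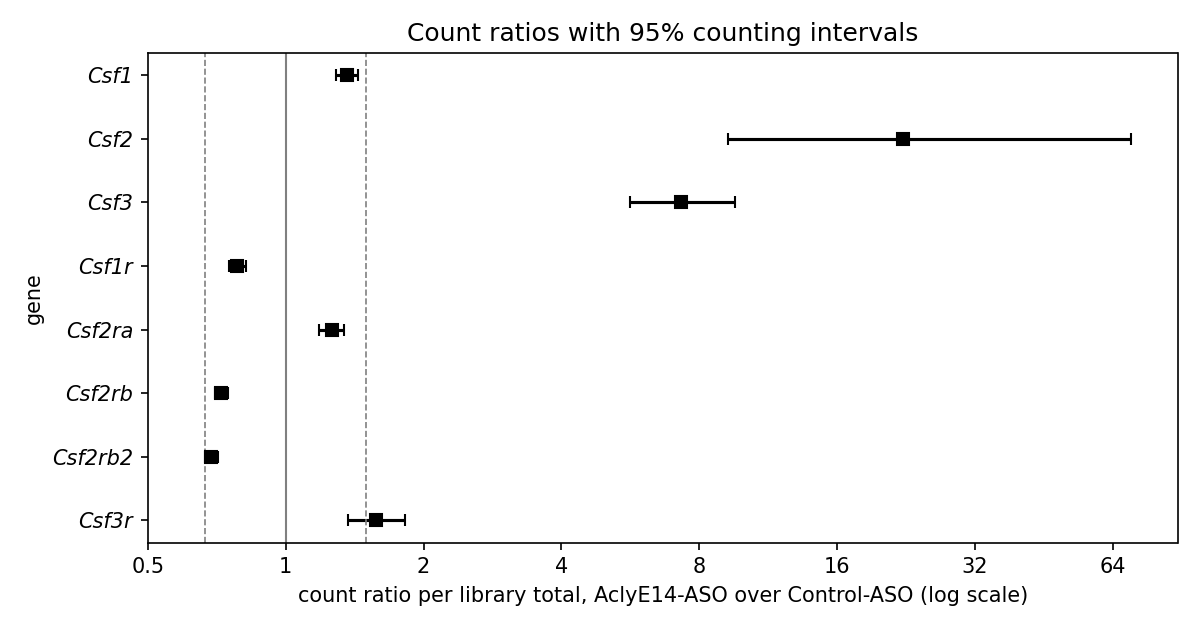
Count ratio per library total of each gene, AclyE14-ASO over Control-ASO (log scale), with exact 95% intervals for counting error; the solid line marks no difference and the dashed lines 1.5-fold. Csf2 (22.3) and Csf3 (7.30) lie far to the right, and the other 6 genes lie between 0.688 and 1.58.

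Among the receptor genes, the alpha chain and the 2 beta chain genes stood on opposite sides of a ratio of 1. Csf2ra, the ligand-binding alpha chain, had 2197 counts and 93.2 FPKM in the AclyE14-ASO library, against 1943 counts and 73.9 FPKM in the Control-ASO library. Its count ratio was 1.26 (1.19 to 1.34). Csf2rb, the shared signalling beta chain, had 5951 counts and 98.0 FPKM in the AclyE14-ASO library, against 9164 counts and 135 FPKM in the Control-ASO library. Its count ratio was 0.724 (0.701 to 0.748). Csf2rb2 had 6148 counts and 105 FPKM in the AclyE14-ASO library, against 9965 counts and 152 FPKM in the Control-ASO library, a count ratio of 0.688 (0.666 to 0.710). None of these intervals includes 1, and none of the 3 genes reached 1.5-fold, although the lower bound of Csf2rb2 comes to it. The ratio of Csf2ra was 1.74 times that of Csf2rb (1.62 to 1.87) and 1.83 times that of Csf2rb2 (1.71 to 1.96). Per length, the 2 beta chain genes together had 2.17 times the FPKM of Csf2ra in the AclyE14-ASO library and 3.89 times in the Control-ASO library. Among genes averaging at least 20 FPKM, 8.18% were lower by 1.5-fold.

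The beta chain genes are near copies of each other, which bears on how far their counts can be separated. Their coding sequences (2691 bases for Csf2rb and 2637 for Csf2rb2) were identical at 2505 of 2631 aligned bases, 95.2%. Windows of 100 bases found unchanged in the other transcript made up 6.96% of the Csf2rb transcript and 7.20% of the Csf2rb2 transcript, and with 50-base windows 18.4% of the Csf2rb transcript and 19.0% of the Csf2rb2 transcript. How the authors assigned reads that match both genes, and the read length, are not stated in the sources used here. The most divergent 60-base stretch of the aligned coding sequences is shown with its 13 differing bases in capitals. It holds only part of the 126 aligned bases that differ, so reads from other stretches can also tell the genes apart.
Csf2rb (chr15:78338893-78338952, plus strand, GRCm38): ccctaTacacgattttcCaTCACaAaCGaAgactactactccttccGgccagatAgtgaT
Csf2rb2 (chr15:78294379-78294438, minus strand, GRCm38): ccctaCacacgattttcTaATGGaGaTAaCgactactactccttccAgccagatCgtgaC
Summed over both genes, there were 12099 counts in the AclyE14-ASO library and 19129 in the Control-ASO library, a ratio of 0.705 (0.689 to 0.721). A split of shared reads between the 2 genes leaves this sum unchanged, but dropping such reads or counting them for both genes would not. The ratio of Csf2rb2 was 0.9501 times that of Csf2rb (0.908 to 0.995), and the 2 genes kept nearly the same proportion, with 1.07 times as much Csf2rb2 as Csf2rb by FPKM in the AclyE14-ASO library and 1.12 times in the Control-ASO library. They lie head to head on chromosome 15, Csf2rb (ENSMUSG00000071713) at 78325752 to 78353847 on the plus strand and Csf2rb2 (ENSMUSG00000071714) at 78282507 to 78305721 on the minus strand, 20031 bases apart. Csf2ra (ENSMUSG00000059326) lies on chromosome 19 at 61223957 to 61228429, minus strand.

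Csf1r, the receptor for M-CSF and a defining gene of macrophages, was abundant in both libraries. It had 3793 counts and 50.7 FPKM in the AclyE14-ASO library, against 5393 counts and 64.7 FPKM in the Control-ASO library. The count ratio was 0.784 (0.752 to 0.817), and the log2 ratio was lower in 24.2% of expressed genes. The ratio of Csf1 was 1.74 times that of its receptor Csf1r (1.62 to 1.86). Csf1r (ENSMUSG00000024621, chromosome 18, 61100598 to 61132149, plus strand) overlaps Hmgxb3 on the opposite strand over 873 exonic bases. Hmgxb3 had 388 counts in the AclyE14-ASO library and 780 in the Control-ASO library, and whether counting used the strand is not stated in the sources used here.

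Csf3r, the G-CSF receptor, was the lowest of the receptor genes. It had 463 counts and 6.58 FPKM (5.99 to 7.21) in the AclyE14-ASO library, against 327 counts and 4.17 FPKM (3.73 to 4.65) in the Control-ASO library. The count ratio was 1.58 (1.37 to 1.82), an interval on both sides of 1.5, and the log2 ratio on FPKM + 1 was 0.55, just under the limit. Without a pseudocount, Csf3r passes 1.5-fold as 9.4% of expressed genes do. Csf3r was at 0.266 times the FPKM of its ligand Csf3 in the AclyE14-ASO library and 1.23 times in the Control-ASO library. Csf3r (ENSMUSG00000028859) lies on chromosome 4 at 126024550 to 126044440, plus strand.

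By deposited FPKM, the 5 most abundant of the 8 genes had the same order in both libraries, namely Csf2rb2, Csf2rb, Csf2ra, Csf1r and Csf1. Below them came Csf3, Csf2 and Csf3r in the AclyE14-ASO library, and Csf3r, Csf3 and Csf2 in the Control-ASO library. The Poisson intervals of Csf2rb and Csf2ra overlapped in the AclyE14-ASO library (95.5 to 100.5 and 89.3 to 97.2 FPKM), as did those of Csf1 and Csf3 (26.2 to 28.3 and 22.5 to 27.1 FPKM). In the Control-ASO library the intervals of Csf3r and Csf3 overlapped. The last 2 overlaps hold on the deposited lengths only, since per coding transcript length Csf1 was at 51.9 and Csf3 at 24.7 in the AclyE14-ASO library, and Csf3r at 6.61 and Csf3 at 3.39 in the Control-ASO library. The length behind Csf3r, 5519 bases, is 1.59 times its coding transcript, and per coding transcript length Csf3r (10.4) stood above Csf2 (9.80) in the AclyE14-ASO library.

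**Figure D3:**
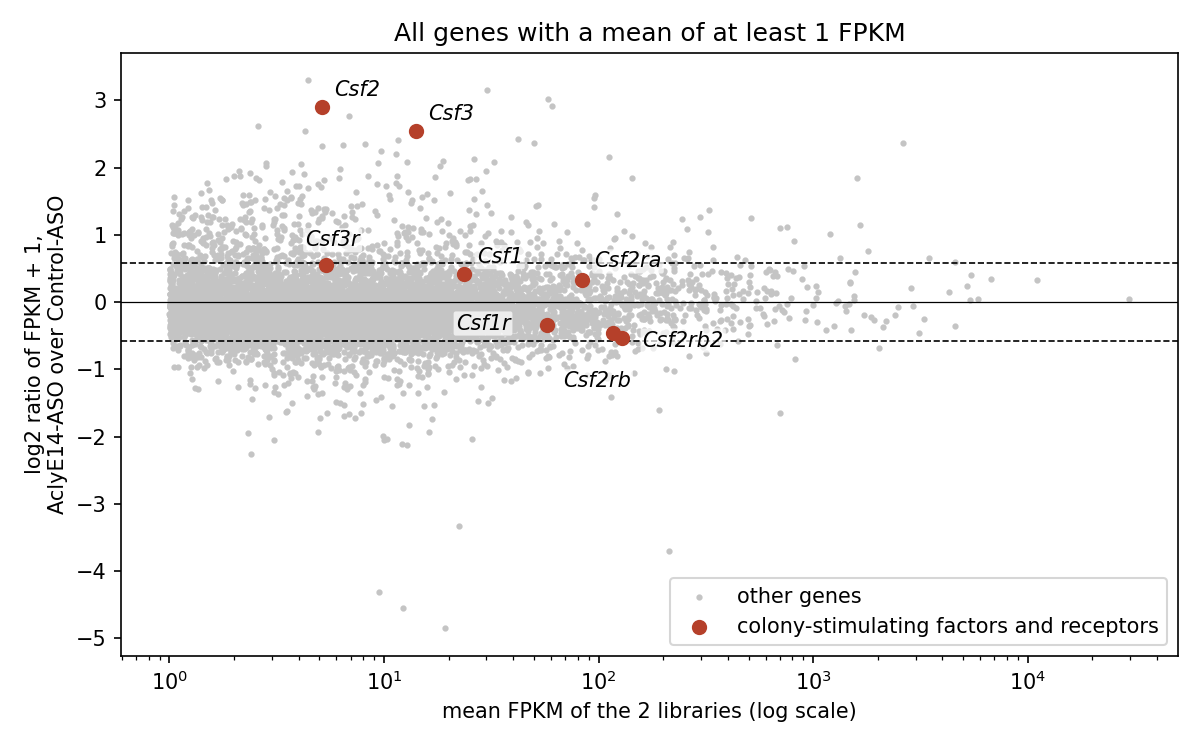
Log2 ratio (FPKM + 1) between the AclyE14-ASO and Control-ASO libraries, plotted against the mean FPKM of the 2 libraries (log scale) for the 8658 genes averaging at least 1 FPKM; the dashed lines mark 1.5-fold. Csf2 and Csf3 lie at the upper edge of all genes, and the other 6 labelled genes lie inside the dashed lines.

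The genes next to Csf2 and Csf3 that had counts had count ratios near 1. Il3, the closest protein-coding gene to Csf2 at 15636 bases, had 0 counts in both libraries, which allows up to 3 counts in each. On the other side, P4ha2, 115606 bases away, had 86 counts in the AclyE14-ASO library and 91 in the Control-ASO library (count ratio 1.05, 0.775 to 1.43). P4ha2 stayed below the expression limit (0.793 FPKM in AclyE14-ASO, 0.753 in Control-ASO). Next to Csf3, Psmd3 had a count ratio of 0.914 (0.832 to 1.004) and Med24, 962 bases away, 0.954 (0.803 to 1.13). Beside the beta chain genes, Ncf4, a subunit of the phagocyte NADPH oxidase, had 1897 counts in the AclyE14-ASO library and 2915 in the Control-ASO library, a ratio of 0.726 (0.684 to 0.769) close to those of Csf2rb and Csf2rb2. Pdgfrb, the growth factor receptor next to Csf1r, had 77 counts in the AclyE14-ASO library and 11 in the Control-ASO library. Ahcyl1, the nearest expressed neighbour of Csf1, had a ratio of 0.611 (0.576 to 0.648).

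By level in both libraries, the genes most like each member were sought as the nearest by Euclidean distance in log2 of FPKM + 1 over the 2 libraries, among 8635 other genes with a symbol. Nearest to Csf2 were Bgn, the matrix proteoglycan biglycan (8.05 FPKM in the AclyE14-ASO library and 0.553 in the Control-ASO library, distance 0.28), and Plac8 (9.25 FPKM in AclyE14-ASO, 1.06 in Control-ASO). Nearest to Csf3 were Col1a1, a fibrillar collagen chain (20.2 FPKM in the AclyE14-ASO library and 2.99 in the Control-ASO library, distance 0.31), and Nqo1 (21.3 FPKM in AclyE14-ASO, 4.26 in Control-ASO). The other 6 genes had neighbours at distances of 0.02 to 0.11, among them Anpep for Csf2rb2 and Inhba for Csf1r. With 2 libraries such likeness rests on 2 values per gene.

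The related ligands and receptors were mostly silent. Of 13 listed genes 12 were matched, and 8 of these, including Il3, Il5, Il5ra, Flt3 and Epor, had 0 counts in both libraries. Il3ra, the alpha chain that pairs with the Csf2rb and Csf2rb2 products for IL-3, had 592 counts and 33.3 FPKM in the AclyE14-ASO library, against 589 counts and 29.7 FPKM in the Control-ASO library (count ratio 1.12, 0.998 to 1.26). Il34, the second ligand of CSF1R, had 5 counts in the AclyE14-ASO library and 0 in the Control-ASO library. Kitl, the stem cell factor gene, had 133 counts in the AclyE14-ASO library and 224 in the Control-ASO library. Of the 2 members that reached the expression limit, Il3ra and Kitl, 0 passed 1.5-fold.

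The signalling genes just below these receptors mostly stayed within 1.5-fold. Of 22 measured members 1 was higher, 3 were lower and 18 lay between, and the median log2 ratio of -0.14 was close to the -0.13 of all genes. All expressed genes were higher in 7.03% of cases and lower in 8.48%. Stat5a, a transcription factor activated by the GM-CSF receptor, was at 23.1 FPKM in the AclyE14-ASO library and 12.8 in the Control-ASO library (count ratio 1.81, 1.71 to 1.92). Its neighbour and relative Stat5b was at 15.02 FPKM in the AclyE14-ASO library and 12.8 in the Control-ASO library, and the kinase gene Jak2 had a count ratio of 1.15 (1.10 to 1.20). The adaptor gene Grb2 was at 15.4 FPKM in the AclyE14-ASO library and 27.9 in the Control-ASO library, and the PI3-kinase gamma genes Pik3cg (count ratio 0.544) and Pik3r5 (count ratio 0.612) were lower too. Tyrobp, the DAP12 adaptor and the most abundant member, was at 1123 FPKM in the AclyE14-ASO library and 947 in the Control-ASO library.

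Genes known to respond to STAT5 or GM-CSF differed more. Of 15 measured members of 19 listed, 8 were higher by 1.5-fold, 3 were lower and 4 lay between, and the median log2 ratio was 0.82, against -0.13 over all genes. As a share of all expressed genes, 7.03% were higher and 8.48% were lower. Of the 8 higher ones, Bcl2l1, Ccnd1 and Ccl17 reached the expression limit only through the AclyE14-ASO library, which raises both the count and the median. The suppressor of cytokine signalling gene Cish, a direct STAT5 target, had 827 counts and 5.98 FPKM in the AclyE14-ASO library, against 209 counts and 1.36 FPKM in the Control-ASO library (count ratio 4.41, 3.79 to 5.16). Osm, the oncostatin M gene, was at 18.1 FPKM in the AclyE14-ASO library and 4.63 in the Control-ASO library. The cyclin gene Ccnd1 had 200 counts in the AclyE14-ASO library and 17 in the Control-ASO library, and the chemokine gene Ccl17 had 13 counts in the AclyE14-ASO library and 2 in the Control-ASO library. The cyclin gene Ccnd2 (count ratio 3.17), the survival gene Bcl2l1 (2.81), the feedback inhibitor gene Socs3 (1.84) and the IL-1 receptor antagonist gene Il1rn (1.77) were also higher.

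The lower members of that list were Bcl6, a repressor that STAT5 is known to compete with, at 2.56 FPKM in the AclyE14-ASO library and 10.4 in the Control-ASO library (count ratio 0.245, 0.212 to 0.281), Socs1 (count ratio 0.439) and Pparg (count ratio 0.493). Pim1, a STAT5 target kinase and the most abundant member, was at 307 FPKM in the AclyE14-ASO library and 379.7 in the Control-ASO library. The 3 members measured only through the AclyE14-ASO library were all called higher. Over the 8 members averaging at least 5 FPKM the median was -0.25 with 3 higher. Ccnd1 overlaps 1100 exonic bases of an expressed gene on the opposite strand, and the counts of the pair, added together, gave a ratio of 1.46 (1.26 to 1.69). This list was written with earlier results of these data known, and several of its genes also respond to other cytokines and to LPS.

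Of 15 measured transcription factors that act on Csf2 and Csf3 promoters 3 were higher, 0 were lower and 12 lay between, with a median of -0.01. The shares over all expressed genes were 7.03% higher and 8.48% lower. The NF-kB genes of this list lay within 1.5-fold, with count ratios of 1.47 for Nfkb2, 0.989 for Rela, 0.876 for Nfkb1, 0.864 for Rel and 0.769 for Relb. Nfkbiz, which encodes an IkB protein, had one of 0.828. The AP-1 genes of this list differed in direction. Fosl2 was at 5.67 FPKM in the AclyE14-ASO library and 1.98 in the Control-ASO library (count ratio 2.86, 2.51 to 3.26), Fosl1 had 102 counts in the AclyE14-ASO library and 41 in the Control-ASO library, and Jund had a count ratio of 1.59 (1.43 to 1.76). Fosl1 overlaps 1163 exonic bases of Ccdc85b on the opposite strand, and their summed counts had a ratio of 2.20 (1.62 to 3.01). Junb, the most abundant member, was at 352 FPKM in the AclyE14-ASO library and 240.5 in the Control-ASO library. Fos was at 4.14 FPKM in the AclyE14-ASO library and 5.44 in the Control-ASO library (count ratio 0.761, 0.633 to 0.914), Jun had a count ratio of 1.07 (0.952 to 1.19), and Atf3 one of 0.991 (0.962 to 1.02). Under scaling to the median gene or by TMM, 5 members of this list were higher.

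Of 12 measured mRNA decay factors 2 were higher and 1 was lower, with a median of -0.13, against 7.03% higher and 8.48% lower over all expressed genes. Zfp36, which encodes tristetraprolin and was the most abundant member, was at 178 FPKM in the AclyE14-ASO library and 84.7 in the Control-ASO library (count ratio 2.10, 1.997 to 2.22). Its relative Zfp36l1, which also binds AU-rich elements, had 185 counts in the AclyE14-ASO library and 47 in the Control-ASO library (2.95 FPKM in AclyE14-ASO, 0.672 in Control-ASO), so it reached the expression limit only through the AclyE14-ASO library. Zc3h12c, of the regnase family, was at 5.97 FPKM in the AclyE14-ASO library and 14.1 in the Control-ASO library.

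Of 13 measured myeloid transcription factors, those that act on Csf1r and the macrophage lineage, 1 was higher and 1 was lower, with a median of -0.03. Across all expressed genes 7.03% were higher and 8.48% were lower. Spi1, which encodes PU.1, the main activator of Csf1r, was at 73.4 FPKM in the AclyE14-ASO library and 92.9 in the Control-ASO library, a count ratio of 0.791 (0.755 to 0.828) near that of Csf1r. Cebpa, a myeloid factor known to activate Csf3r, was at 2.46 FPKM in the AclyE14-ASO library and 6.76 in the Control-ASO library (count ratio 0.364, 0.300 to 0.438). The part of Spi1 and Cebpa in the levels of Csf1r and Csf3r was not tested. The abundant Cebpb was at 140.3 FPKM in the AclyE14-ASO library and 98.2 in the Control-ASO library.

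Of 4 measured genes for shedding of the M-CSF protein and its receptor from the cell surface, 1 was higher, and under scaling to the median gene or by TMM 2 were. Without such scaling, 7.03% of all expressed genes were higher. Timp3, an inhibitor of the sheddase ADAM17, was at 5.90 FPKM in the AclyE14-ASO library and 1.20 in the Control-ASO library (count ratio 4.92, 4.12 to 5.89). Adam10, a sheddase related to ADAM17, was at 10.1 FPKM in the AclyE14-ASO library and 6.88 in the Control-ASO library (count ratio 1.47, 1.33 to 1.64). Adam17 was at 17.9 FPKM in the AclyE14-ASO library and 22.8 in the Control-ASO library, and Rhbdf2, which carries ADAM17 to the surface, at 35.4 FPKM in the AclyE14-ASO library and 39.5 in the Control-ASO library.

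**Figure D4:**
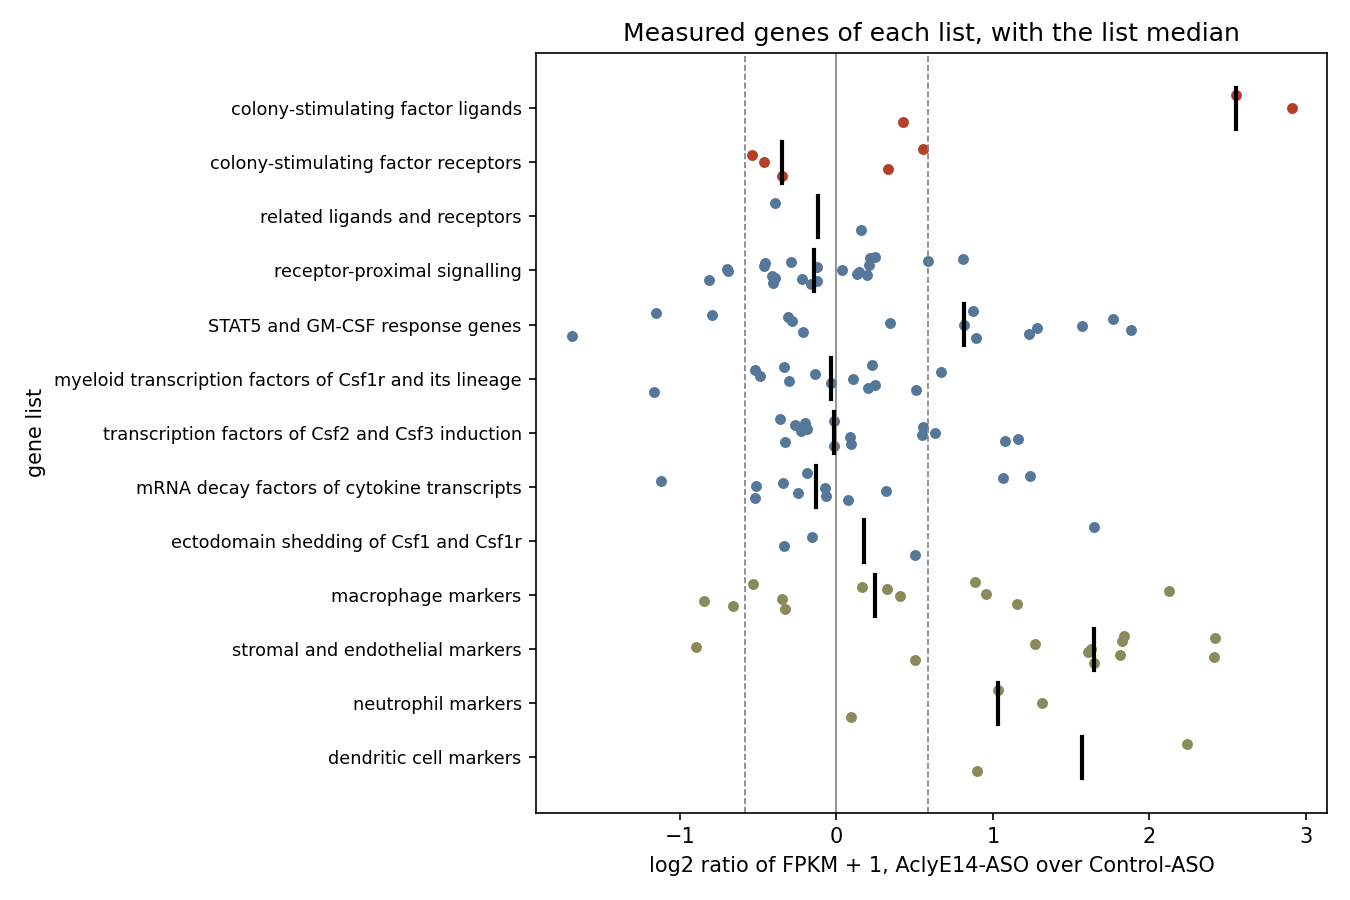
Log2 ratio (FPKM + 1) between the AclyE14-ASO and Control-ASO libraries for the measured genes of each list with at least 2 measured members; each point is a gene, the black bar is the list median and the dashed lines mark 1.5-fold. The list of STAT5 and GM-CSF response genes has a median of 0.82, or -0.25 over its members averaging at least 5 FPKM. The stromal and endothelial markers have one of 1.65, and the other signalling and transcription factor lists centre near 0.

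Markers of other cells that make or answer colony-stimulating factors were read beside these genes. For comparison, 7.03% of all expressed genes were higher by 1.5-fold and 8.48% were lower. Of 18 stromal and endothelial markers, whose cells can secrete all 3 ligands, 11 reached the expression limit and 9 of these were higher by 1.5-fold, with 1 lower and a median of 1.65. The lower one was the endothelial receptor gene Kdr (5.49 FPKM in AclyE14-ASO, 11.1 in Control-ASO). The endothelial marker Cdh5 lay within 1.5-fold on FPKM + 1 (count ratio 1.80), and Pecam1 and Vwf missed the expression limit, so the 9 higher ones include none of these endothelial markers. Of the 9, Thy1 (3.44 FPKM in AclyE14-ASO, 0.243 in Control-ASO) and Pdgfra (2.22 FPKM in AclyE14-ASO, 0.338 in Control-ASO) reached the limit only through the AclyE14-ASO library. The most abundant of the 9 were Tagln (71.9 FPKM in AclyE14-ASO, 12.6 in Control-ASO), Acta2 (43.7 FPKM in AclyE14-ASO, 13.3 in Control-ASO) and Sparc (39.1 FPKM in AclyE14-ASO, 10.3 in Control-ASO). Tagln overlaps 108 exonic bases of Pcsk7 on the opposite strand, and their summed counts had a ratio of 2.18 (2.03 to 2.35). The summed level of the 18 markers was 256 FPKM in the AclyE14-ASO library and 71.7 FPKM in the Control-ASO library, with single genes between 0.0175 and 71.9 FPKM in the AclyE14-ASO library and between 0 and 13.3 FPKM in the Control-ASO library. Postn was at 0 counts in the Control-ASO library only, and Pecam1 had 2 counts in the AclyE14-ASO library and 4 in the Control-ASO library. The part of stromal cells in the levels of Csf1, Csf2 and Csf3, and in those of Timp3, Ccnd1 and the other genes higher in the same library, was not tested.

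The counts of further markers also stand against 7.03% higher and 8.48% lower over all expressed genes. Of 15 neutrophil markers 3 were measured and 2 of these were higher, with a median of 1.03. The summed level of the 15 was 83.4 FPKM in the AclyE14-ASO library and 37.1 FPKM in the Control-ASO library. Most of it came from S100a8 (41.4 FPKM in AclyE14-ASO, 19.7 in Control-ASO) and Mmp9 (38.9 FPKM in AclyE14-ASO, 15.1 in Control-ASO), which activated macrophages also express. Mmp8, the third measured marker, had 76 counts in the AclyE14-ASO library and 77 in the Control-ASO library. Cebpe had 8 counts in the AclyE14-ASO library and 0 in the Control-ASO library. Elane, Ly6g, Prtn3, Ctsg, Camp, Retnlg and S100a9 had 0 counts in both libraries. The part of neutrophils in the level of Csf3r was not tested. Of 10 mast cell, basophil and eosinophil markers 9 had 0 counts in both libraries. Of 12 lymphocyte markers Il7r alone was measured (61.1 FPKM in the AclyE14-ASO library and 63.2 in the Control-ASO library), and Cd3e, Cd8a, Ncr1 and Klrb1c had 0 counts in both. Of 9 dendritic cell markers 2 were measured, Fscn1 (16.7 FPKM in AclyE14-ASO, 2.74 in Control-ASO) and Cd83 (290.4 FPKM in AclyE14-ASO, 155 in Control-ASO), both higher. Xcr1, Cd209a, Flt3 and Siglech had 0 counts in both libraries, and Zbtb46, Ccr7 and Clec9a stayed below the expression limit. The part of dendritic cells in these levels was not tested. Macrophage markers were abundant in both libraries, with 12 of 13 measured, 4 higher and 2 lower, and a summed level of 21700.3 FPKM in the AclyE14-ASO library and 16855 FPKM in the Control-ASO library. Most of that sum was Lyz2 (12276 FPKM in AclyE14-ASO, 9798 in Control-ASO) and Ctss (6221 FPKM in AclyE14-ASO, 4696 in Control-ASO). The 2 lower ones were Cd68 (590 FPKM in AclyE14-ASO, 1059 in Control-ASO) and Aif1 (count ratio 0.525). Adgre1, Mrc1 and Csf1r, itself one of the 8 genes, had count ratios below 1. Lyz2, Ctss and Mertk had count ratios above 1, and all of these lay within 1.5-fold. The 4 higher macrophage markers were Cd14 (2270 FPKM in AclyE14-ASO, 1020 in Control-ASO), Fcgr1 (count ratio 1.96), Msr1 (1.87) and Itgam (4.74). The median log2 ratio of the macrophage markers was 0.24. Itgam shares 3450 exonic bases with Gm49368, and the 2 genes together had a ratio of 1.60 (1.53 to 1.68).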

How the data were processed

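Gene expression was measured by RNA sequencing in 2 libraries, 1 per condition. The deposited table gives raw counts and FPKM per Ensembl gene, per the file headers. The submitters' processing notes name the mm10 build and the tools HISAT2, StringTie 1.3.0 and edgeR without saying what each was used for. The authors' FPKM values follow from the deposited counts by 1 length per gene and the summed counts of each library, since the FPKM value of 1 count was 1.11 times as high in the AclyE14-ASO library for all genes above 20 counts, which is the ratio of the totals. Symbols were matched by identifier (34267 of 34745), and positions and transcript sequences came from GENCODE M21 (GRCm38, also called mm10). Identifiers left without a symbol (478) took 0.136% of the AclyE14-ASO and 0.175% of the Control-ASO counts.

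With 1 library per group, no test was run. Log2 ratios used FPKM + 1, which understates low genes, for genes averaging at least 1 FPKM. Without molecular identifiers, reads need not be separate molecules, so intervals cover counting error only. Coding sequences were aligned globally with Biopython 1.88. Ratios used SciPy 1.17.1 and NumPy 2.4.6 under Python 3.11.15. The code was tried on simulated Poisson counts without culture-to-culture variation, so that trial says nothing about such variation. TMM (trimmed mean of M values) factors came from edgeR 4.0.16. The genes, lists and limits were chosen with earlier results of these data known. Named genes were the 8 members, up to 3 list members at each end past 1.5-fold and the most abundant, the nearest neighbours and the 2 most similar genes; others, such as Stat5b, Jak2, Il34, Ccnd2, Bcl2l1, Ccl17, Socs3, Il1rn, Spi1, Adam17 and Itgam, were added after their values were seen. Alternatives were pseudocounts of 0.1 and 5, scaling to the median gene or by TMM, other expression limits, and limits of 2-fold and 4-fold; calls on counts without a pseudocount were chosen after seeing the data. The list gene Flt3l was not analysed here. The single values of 1 member of the myeloid transcription factor list are not reported here.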

Additional observations from a re-analysis of the deposited data

How the results depend on the processing

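Csf2 and Csf3 were called higher under all 9 alternatives for calls, and 0 of the 8 genes were called lower under any. Csf3r joined them, making 3, with a pseudocount of 0.1, scaling to the median gene, TMM scaling, or counts without a pseudocount. No count ratio changed its direction. By FPKM + 1 the ratio of Csf2 was 7.50, and by FPKM + 5 the ratios were 2.72 for Csf2, 3.54 for Csf3 and 1.26 for Csf3r, since a pseudocount shrinks low genes. With TMM-scaled totals the ratios were 1.46 for Csf1, 0.841 for Csf1r, 1.35 for Csf2ra, 0.777 for Csf2rb and 0.738 for Csf2rb2. Scaled to the median gene, a shift of 0.13 on the log2 scale, they were 1.499 for Csf1, 0.864 for Csf1r, 1.39 for Csf2ra, 0.797 for Csf2rb and 0.758 for Csf2rb2.

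Over the 7 pathway lists 16 genes were higher and 8 lower. A pseudocount of 5 gave 10 higher, a mean of at least 5 FPKM 7 higher and 5 lower, 2-fold 10 higher and 4 lower, and 4-fold 0 of each. Over all genes 609 were higher and 734 lower (45.3% higher). Lower genes numbered 1184 with a pseudocount of 0.1, 1249 on counts and 406 when scaled to the median gene (67.7% higher; 59.7% under TMM). A pseudocount of 5 gave 287 higher and 258 lower, a mean of at least 5 FPKM 298 and 455, 2-fold 275 and 134, and 4-fold 28 and 12. For the single lists, 183 counts stayed within 1.5 times the reported one and 51 did not. The 5 counts of Csf2 in the Control-ASO library limit how closely its ratio is known. No paired analysis was possible because each group has 1 library.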
